A study of Mus musculus with 29 samples.

Results

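In mice with stroke, microglia, the resident macrophages of the brain, were compared at day 14 with those at day 2, gene by gene. Counts were summed over all cells that the deposited annotation gave the parent code Mg, which yielded 1 profile per library. These were 7863 microglia of the 28240 cells in 8 brain libraries: 2693 cells in 4 libraries of day 2 and 5170 cells in 4 libraries of day 14. In all, 18 brain libraries held 24707 microglia among 55268 cells, and the series had 29 libraries of brain and blood. The mice of both groups were C57BL/6J males of 8 to 10 weeks whose middle cerebral artery was occluded for a time and then reopened (tMCAO). As a background, 4 libraries came from males of the same strain and age, 2 days after sham surgery. No sham libraries of day 14 were used here, so time since stroke and time since surgery cannot be told apart. Aged mice of 17 to 20 months gave 3 stroke libraries of day 2 (1 male, 2 female) and 1 of day 14 (female). Each library pooled 4 to 5 hemispheres, the stroke side per the deposited metadata. All tissue was digested with papain in the presence of actinomycin D, Brilliant Blue G and AP-5. Microglia of intermediate CD45, leukocytes of high CD45 and endothelial cells were sorted and then read by Drop-seq, a droplet method in which a barcoded bead labels the transcripts of each cell. Since each library is a pool, and no label ties the libraries to separate operations, p values measure only the spread between these libraries.

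Microglia keep a homeostatic state in healthy tissue, maintained by transforming growth factor β and marked by genes such as P2ry12, Tmem119 and Sall1. After an infarct they divide, clear dead cells and lipid-rich debris, and can take on a state described first in models of neurodegeneration, in which receptors such as Trem2 and the lipoprotein gene Apoe are induced. Interferons induce a further set of genes in them, among them those of antigen presentation on MHC class I.

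The cells under the code Mg carried the microglial markers fixed for this check, with 1 exception among the libraries. Levels of genes are CPM, a library's microglial counts scaled to a common total, after TMM unless stated otherwise. Sums of markers are CPM without TMM, as are levels in other cell types, so that the cell types share 1 scale. In the stroke libraries, the 10 microglial markers (among them P2ry12, Tmem119, Sall1, Siglech, Gpr34 and Cx3cr1) summed to 14466 to 19010 CPM at day 14. At day 2 they summed to 16395 to 17430 CPM in libraries 1, 2 and 4, but to 820 CPM in library 3. The sham libraries lay at 21109 to 30167 CPM. After TMM these sums were 17904 to 24411 CPM at day 14, 16323 to 19257 CPM in day 2 libraries 1, 2 and 4 and 638 CPM in library 3, and 19242 to 25085 CPM in sham, so that day 14 library 3 and day 2 library 4 then reached into the sham range. Without TMM, monocyte-derived cells of the stroke libraries lay at 1041 CPM. Day 2 library 3 held 58 microglia and 26321 microglial counts, so that 1 count was worth 29.5 CPM after TMM, whereas the other 7 libraries held 618 to 2625 microglia and 605240 to 2743720 counts. In 54 of these 58 cells more genes than counts were listed, with a median of 2204.5 genes and 337.8 counts per cell. The deposited counts are fractional, and the gaps to the next whole number made up 79.6% of the rounded-up microglial total of that library, against 4.48% to 7.18% in the other day 2 libraries. Some results of the comparison of both days are therefore also given without it. The named genes that lost their call without it are listed in the section on processing at the end.

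The sum of 12 markers of monocytes and macrophages overlapped between both days only through day 2 library 3. These markers (Ly6c2, Ccr2, Plac8, Chil3, Itga4, Ms4a4c, Fn1, Vcan, F13a1, Lyz2, Arg1 and Saa3) summed to 1369, 1020, 4586 and 545 CPM in microglia of day 2 libraries 1 to 4. They summed to 2159 to 3187 CPM at day 14 and to 237 to 408 CPM in sham. Most of this was Lyz2, the lysozyme gene, which without TMM was at 968, 714, 3443 and 520 CPM in day 2 libraries 1 to 4 and at 2939, 3035, 3026 and 2125 CPM in day 14 libraries 1 to 4. Without Lyz2 the other 11 markers summed to 402, 306, 1143 and 24.5 CPM at day 2 and to 179, 152, 96.9 and 34.1 CPM at day 14, with Vcan at 0 in every day 14 library. Day 2 library 3 had the highest sum, and the day 14 libraries lay within the range of day 2. Monocyte-derived cells held these 11 markers at 10193 CPM. Their part in the changes below was not tested.

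**Figure D1:**
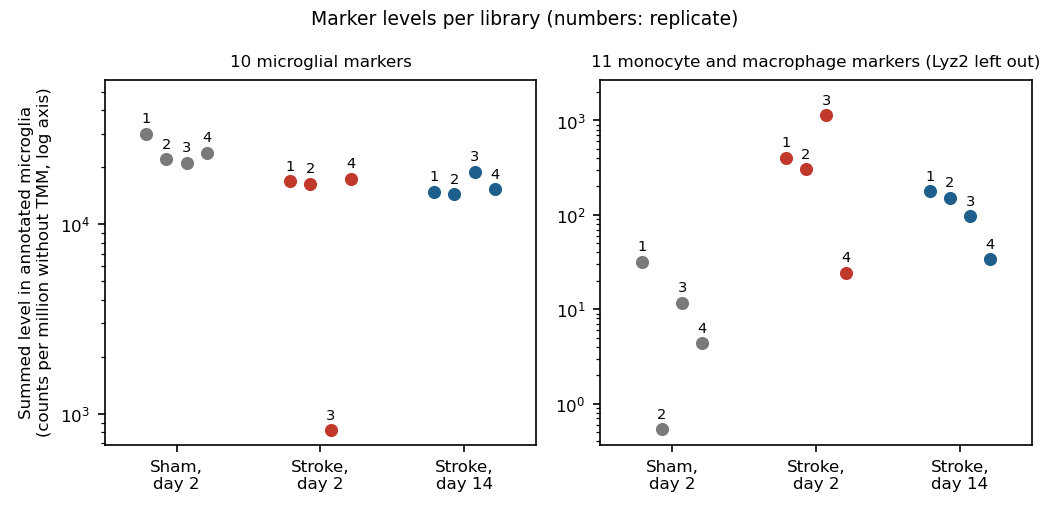
Summed level of the 10 microglial markers and of the 11 monocyte and macrophage markers other than Lyz2 in the microglia of each library (log axis, CPM without TMM; 1 point per library with its replicate number, groups sham day 2, stroke day 2 and stroke day 14). Day 2 library 3 sits at 820 CPM of microglial markers and at 1143 CPM of the others, apart from the other 3 libraries of its group.

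The libraries also fell into groups by their mitochondrial counts, for a reason the labels do not give. Day 2 libraries 1 and 2, day 14 libraries 1 and 2 and sham library 1 had a median of at most 0.559% mitochondrial counts per cell, and the other 7 libraries at least 1.67%. This split was balanced between both days and entered the model as a term. Median counts per microglial cell were 787 ± 503 at day 2 and 1252 ± 857 at day 14 (SD, n = 4 libraries each, exact permutation p = 0.314, two-sided). Median mitochondrial percent was 0.814 ± 0.568 and 1.53 ± 1.51 (n = 4 each, exact permutation p = 0.543). Of 28211 barcodes in the 8 libraries, 28 occurred in more than 1 library.

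The microglia of both days came mostly from different deposited subtypes, which were clustered on these genes and are given here as a description. At day 2, Mg4 made up 38.4% and Mg5 33.8% of the microglia, against 1.01% and 2.19% at day 14, while Mg3 made up 4.94% and 66.1%. Day 2 library 3 was 96.6% Mg4.

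Summed over all subtypes, microglia of day 14 held more transcripts of apolipoproteins, of the disease-associated state and of MHC class I than those of day 2, and fewer of cell division. The quasi-likelihood test of edgeR, with Benjamini-Hochberg adjustment over all genes, called 1040 of 10145 genes at an adjusted p under 0.05 (10.3%), of which 523 were higher at day 14 (5.16%) and 517 lower (5.1%). In 1355 genes (13.4%) the 4 libraries of one day did not overlap those of the other, 895 with day 14 higher (8.82%) and 460 with day 14 lower (4.53%). These counts include day 2 library 3, where 1 count was worth 29.5 CPM. A gene without a count there cannot be lower at day 14 without overlap, so this split is not a measure of direction. It was not counted without that library. The median log2 fold change over all genes was 0.10. Scaling mattered for the split: by library size in place of TMM this median was -0.17 and 303 genes were higher and 1171 lower, while DESeq2 gave a median of 0.18 with 871 higher and 545 lower. Without day 2 library 3 the counts were 462 higher and 611 lower. The number of calls depended most on day 2 library 4, without which 278 were left, and it was 660 without day 2 library 1, 628 without day 14 library 1 and 692 without day 14 library 4. Within the batch of low mitochondrial counts alone (2 libraries against 2, with 1 sham) 1 gene was called, although 1634 had an unadjusted p under 0.05. Within the other batch 675 genes were called. All 1037 genes called over both batches that could be tested in the low batch had the same sign there. The libraries of the low batch were part of the fit that called these genes, so the shared sign is not a separate test.

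Genes of the disease-associated state rose, among them the lipid carriers of the Apoe cluster. Of the 22 genes of this state that were tested, 15 rose and none fell (5.16% and 5.1% of all genes, the shares against which each list below is read), with a median log2 fold change of 2.70, and 13 to 16 rose with any 1 library left out. Apoe, which carries cholesterol between cells, was at 1939, 1785, 4785 and 859 CPM in day 2 libraries 1 to 4 and at 64146, 65835, 92906 and 42255 CPM in day 14 libraries 1 to 4. The lowest day 14 library thus lay far above the highest day 2 library, and sham was at 656 to 1284 CPM. Its log2 fold change was 4.87 ± 0.57 (SE, adjusted p = 0.000248), 5.09 within the low batch and 4.76 within the other.

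Of the neighbouring apolipoproteins, Apoc1 and Apoc4 rose as well. In the RefSeq annotation of GRCm38.p6, Apoc4 (chr7:19678084-19681460), Apoc1 (chr7:19689480-19692659) and Apoe (chr7:19696244-19701310) lie on chromosome 7, next to a further member, Apoc2 (chr7:19671579-19677941). Apoc2 was too low to be tested, with summed expected counts of 0.593 at day 2 and 16.1 at day 14. Apoc1, a small lipoprotein component that inhibits lipid uptake by receptors, was at 7.61, 1.64, 0 and 3.22 CPM at day 2 and at 262, 398, 799 and 270 CPM at day 14. No library of one day came near the other, and sham was at most at 7.53 CPM. The log2 fold change of Apoc1 was 6.62 ± 0.65 (adjusted p = 7.98e-05). Apoc4 was read by 1 count over all day 2 libraries and by 423 counts at day 14 (50.2, 45.2, 198 and 45.0 CPM), which is 298 times the level in pooled counts without TMM (exact 95% interval 53.2 to 11796, counting error only).

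Other members of this state rose in every day 14 library. Cst7 encodes cystatin F, an inhibitor of lysosomal cathepsins. It was at 194, 209, 29.5 and 310 CPM at day 2 and at 2376, 2095, 2954 and 1609 CPM at day 14, a log2 fold change of 3.42 ± 0.41 (adjusted p = 0.000305). Sham microglia held at most 22.6 CPM of it, below day 2 libraries 1, 2 and 4, while day 2 library 3 held 1 count. Itgax, the integrin CD11c, was at 14.3, 14.8, 0 and 4.03 CPM at day 2 and at 93.6, 92.7, 90.0 and 71.8 CPM at day 14 (3.3 ± 0.35, adjusted p = 0.000132). Clec7a, the β-glucan receptor Dectin-1, was at 105, 107, 798 and 139 CPM at day 2 and at 1458, 1025, 1587 and 2149 CPM at day 14 (2.99 ± 0.46, adjusted p = 0.00149). The high value of Clec7a at day 2 was that of library 3, and without it the change was 3.58 (adjusted p = 7.54e-05).

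Among receptors and membrane proteins of the same state, Axl, a receptor tyrosine kinase that recognises dying cells, went from 8.90 ± 7.43 to 104 ± 41.4 CPM (SD, n = 4 each; log2 fold change 3.29 ± 0.45, adjusted p = 0.000684). Gpnmb, a glycoprotein of phagosomes and melanosomes, went from 25.7, 11.5, 0 and 0 CPM to 177, 176, 362 and 107 CPM (4.51 ± 0.90, adjusted p = 0.0106). Both were absent or below 3 CPM in sham. Trem2, the lipid-sensing receptor of this state, rose from 1592, 1420, 473 and 1918 CPM to 3681, 3326, 4055 and 2827 CPM (1.34 ± 0.35, adjusted p = 0.0264). Its 4 day 14 libraries lay above all day 2 libraries, but its call was lost in 8 of 24 alternatives, among them leaving out day 2 library 1 or 2 or day 14 library 1 or 3 (adjusted p up to 0.189 over the 8). Baiap2l2, which binds curved membranes, was at 0, 0, 0 and 1.61 CPM at day 2 and at 185, 151, 141 and 107 CPM at day 14 (7.14 ± 0.51, adjusted p = 3.66e-05). The actin-related gene Actr3b showed the same pattern (0, 0, 0 and 1.61 against 58.8, 39.2, 34.7 and 47.3 CPM, 5.50 ± 0.58, adjusted p = 0.000373), and both were at 0 in sham.

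Spp1 behaved differently. This gene encodes osteopontin, a secreted matrix protein of injured tissue. It was at 8228, 8411, 9718 and 18929 CPM at day 2 and at 5831, 6053, 22251 and 3441 CPM at day 14. The days overlapped, day 14 library 3 being the highest of all 8, and the log2 fold change of -0.31 ± 0.53 did not pass the test (adjusted p = 0.767). In sham it was at most at 4.08 CPM.

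**Figure D2:**
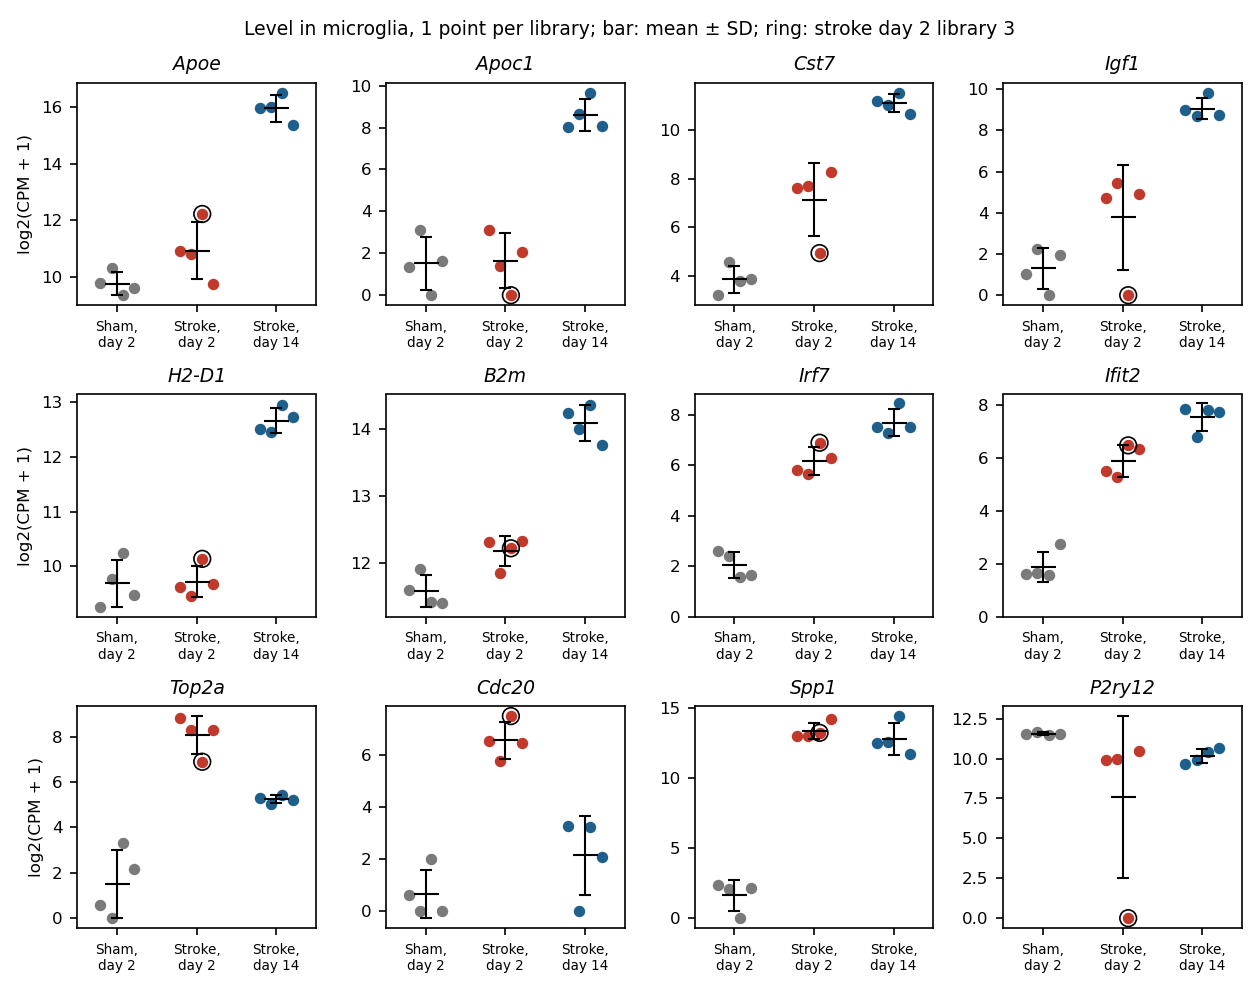
Level of 12 genes in the microglia of each library (log2 of CPM + 1, 1 point per library; bars give mean ± SD of 4 libraries; the ring marks day 2 library 3) for sham day 2, stroke day 2 and stroke day 14. Apoe, Apoc1, Cst7, Igf1, H2-D1 and B2m have no overlap between both stroke days, Top2a and Cdc20 are lower in every day 14 library, and Spp1 and P2ry12 overlap.

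Homeostatic genes did not pass the test in either direction. Of 18 tested, none was called, 16 had a positive log2 fold change and the median was 0.41. P2ry12, the ADP receptor that guides microglial processes, was at 973, 997, 0 and 1426 CPM at day 2 and at 804, 972, 1344 and 1623 CPM at day 14, and sham was at 2796 to 3289 CPM. Both days overlapped and all 8 libraries lay below sham. Its log2 fold change of 0.38 ± 0.58 (adjusted p = 0.731) turned to -0.03 without day 2 library 3, where it was at 0, and it was -0.18 within the low batch. The median of the list was 0.81 without day 2 library 4, 0.86 within the batch of higher mitochondrial counts and -0.08 within the low batch. With DESeq2, 3 members were called, all higher. Without day 2 library 3 the median of the list was 0.13, and 2 members were then called. These were Mef2c, a transcription factor that restrains microglial inflammation (0.78, adjusted p = 0.0342), and Sparc, a matricellular protein (0.92, adjusted p = 0.0101). Sparc was at 2177, 2630 and 1898 CPM in day 2 libraries 1, 2 and 4 and at 3930 to 4381 CPM at day 14, above the 3003 to 3211 CPM of sham.

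Genes of cell division fell as a group. All 28 tested genes of mitosis and G2/M fell and none rose, with a median log2 fold change of -3.28, and 21 of 23 genes of DNA replication and S phase fell (median -2.43), against 5.1% of all genes. The counts were 28 and 22 without day 2 library 3, and 21 and 14 without day 2 library 4. Over these mitotic genes, the summed level was 4413, 3070, 1359 and 3477 CPM in day 2 libraries 1 to 4 and 450, 263, 449 and 423 CPM in day 14 libraries 1 to 4. All day 14 libraries were thus below all day 2 libraries, yet above the 66.7 to 124 CPM of sham.

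Single members followed the group. Cdc20, which activates the anaphase-promoting complex, was at 90.3, 52.6, 177 and 86.6 CPM at day 2 and at 8.56, 0, 8.25 and 3.16 CPM at day 14 (-3.96 ± 0.58, adjusted p = 0.00104). Top2a, the topoisomerase that untangles chromosomes, was at 449, 317, 118 and 316 CPM at day 2 and at 38.8, 32.1, 42.1 and 36.3 CPM at day 14 (-3.12 ± 0.47, adjusted p = 0.00115). For both genes the groups did not overlap, and the day 14 libraries of Top2a lay close to each other. Ncapg, a condensin subunit that compacts mitotic chromosomes, was at 58.9, 52.6, 29.5 and 56.8 CPM against 5.14, 2.38, 2.48 and 3.16 CPM (-3.94 ± 0.40, adjusted p = 8.99e-05). The mitotic kinases Aurka and Plk1 had log2 fold changes of -4.05 ± 0.56 and -3.83 ± 0.64 (adjusted p = 0.0015 and 0.00212), and the call of Plk1 was just lost without day 2 library 4 (adjusted p = 0.0502). Birc5, the survivin of the chromosomal passenger complex, stood at -3.98 ± 0.41 (adjusted p = 9.36e-05), and its partner Cdca8 at -3.82 ± 0.32 (adjusted p = 2.75e-05).

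The remaining named mitotic and replication genes lay in the same range. Spc24, a kinetochore subunit, stood at a log2 fold change of -3.74 ± 0.35 (adjusted p = 4.66e-05), Cenpe, a kinetochore motor, at -3.73 ± 0.62 (adjusted p = 0.00212), and the spindle assembly factor Tpx2 at -3.71 ± 0.49 (adjusted p = 0.000583). Cdca3, which helps to trigger entry into mitosis, stood at -3.81 ± 0.51 (adjusted p = 0.000655). In S phase, Pclaf, a partner of the replication clamp, stood at -3.83 ± 0.55 (adjusted p = 0.000841), and Rrm2, a subunit of ribonucleotide reductase, at -3.38 ± 0.39 (adjusted p = 0.000228). Mcm2, a subunit of the replicative helicase, fell by 2.56 ± 0.34 (adjusted p = 0.000635). Pcna, the clamp itself, was at 433, 339, 236 and 422 CPM at day 2 and at 184, 122, 172 and 337 CPM at day 14. Day 14 library 4 overlapped day 2, and the log2 fold change of -0.99 ± 0.32 did not pass (adjusted p = 0.0667), while it did without day 2 library 3 (-1.17, adjusted p = 0.0326). Mki67, the proliferation marker Ki-67, fell by 2.99 ± 0.67 (adjusted p = 0.0124), a call lost without day 2 library 4 (adjusted p = 0.0589) and with DESeq2 (adjusted p = 0.163).

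Because the mitotic genes moved together, their promoters are shown as sequence. Promoters of mitotic genes often hold a cell cycle homology region, and the letters TTTGAA were searched on both strands in a window of 300 bases, from 250 before to 50 after the first listed start in RefSeq (GRCm38.p6). Of the 23 mitotic genes with a promoter in that table, 17 held it (73.9%), against 12% of the 7360 tested genes that had a promoter and 18.1% of all 27025 promoters. CCAAT boxes, searched as CCAAT on both strands, stood in 20 of the 23 (87.0%), against 39.0% of the tested genes and 37.9% of all. Of the 19 promoters of S phase genes, 2 held TTTGAA (10.5%) and 12 held CCAAT (63.2%). The 3 promoters below are those of Cdc20 (chr4:118437344-118437593, minus strand, match 18 bases before the start), Ncapg (chr5:45669675-45669924, plus strand, 30 bases before) and Top2a (chr11:99024190-99024439, minus strand, 179 and 23 bases before). Each runs 5′ to 3′ over the 250 bases before the start, with TTTGAA or its reverse complement in capitals.
Cdc20: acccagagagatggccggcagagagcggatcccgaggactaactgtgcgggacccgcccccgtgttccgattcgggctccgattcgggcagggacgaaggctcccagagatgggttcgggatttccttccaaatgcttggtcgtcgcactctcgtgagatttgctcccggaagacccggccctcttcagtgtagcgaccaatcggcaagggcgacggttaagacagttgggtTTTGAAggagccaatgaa
Ncapg: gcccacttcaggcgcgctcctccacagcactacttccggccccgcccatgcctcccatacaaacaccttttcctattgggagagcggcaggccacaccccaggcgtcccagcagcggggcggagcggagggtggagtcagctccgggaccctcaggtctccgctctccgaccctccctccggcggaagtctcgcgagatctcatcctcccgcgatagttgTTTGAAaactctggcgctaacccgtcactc
Top2a: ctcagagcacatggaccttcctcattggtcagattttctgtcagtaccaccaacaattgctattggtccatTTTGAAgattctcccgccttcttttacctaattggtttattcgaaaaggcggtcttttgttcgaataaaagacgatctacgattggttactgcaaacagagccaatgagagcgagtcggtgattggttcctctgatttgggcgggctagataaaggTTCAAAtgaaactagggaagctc
A match is a description of the letters and was not tested as a binding site.

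Interferon-response genes rose in part. Of 25 tested, 15 rose and none fell (median 1.19, while 5.16% of all genes rose), but the count rested on day 2 library 4. Without it 2 of the 25 were called, against 10 to 19 with any other single library left out, and the median stayed between 1.04 and 1.30. Over the whole list the summed level was 594 to 828 CPM in sham, 3007, 2415, 6115 and 3458 CPM in day 2 libraries 1 to 4 and 7692, 5414, 8554 and 6153 CPM in day 14 libraries 1 to 4. The stroke libraries of both days lay above sham, and day 2 library 3 reached into the range of day 14. Irf7, the transcription factor that amplifies interferon production, rose from 55.1, 49.3, 118 and 78.1 CPM to 183, 155, 352 and 181 CPM (1.69 ± 0.30, adjusted p = 0.00288). The days did not overlap, and sham was at 1.97 to 5.10 CPM. Ifit2, which binds foreign RNA, rose from 62.8 ± 25.3 to 195 ± 58.1 CPM (SD, n = 4 each; 1.76 ± 0.29, adjusted p = 0.00203).

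Rsad2, the antiviral enzyme viperin, rose from 32.3, 28, 29.5 and 31.0 CPM to 157, 77.3, 75.1 and 73.4 CPM (1.65 ± 0.37, adjusted p = 0.0124). Day 2 libraries 1, 2 and 4 were close together, while the value of day 2 library 3 is 1 count. Day 14 library 1 stood above the others of its day. The call of Rsad2 was lost without day 2 library 1 or 4 or day 14 library 1 and within the batch of higher mitochondrial counts (adjusted p = 0.0548 to 0.0997). Ifi44 had 2 counts over the day 2 libraries and 86 over those of day 14, which is 30.3 times the level (exact 95% interval 8.13 to 254). Isg15, a ubiquitin-like modifier, was at 125, 125, 354 and 189 CPM at day 2 and at 472, 225, 377 and 342 CPM at day 14. Both days overlapped through day 2 library 3, and the call (1.09 ± 0.30, adjusted p = 0.0353) was lost in 14 of 24 alternatives. The call of Ifi44 was lost without day 2 library 4 (adjusted p = 0.0543), and 6 of 24 alternatives could not test it.

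Genes of presentation on MHC class I rose in part. Of 17 tested genes, 10 rose and none fell (median 1.45, while 5.16% of all genes rose), and 8 to 10 rose with any 1 library left out, against 6 within the batch of higher mitochondrial counts. H2-D1, a classical class I heavy chain, was at 781, 702, 1122 and 816 CPM at day 2 and at 5818, 5628, 7944 and 6831 CPM at day 14. Its day 2 libraries lay within the sham range of 612 to 1212 CPM, and every day 14 library was above both. The log2 fold change was 2.95 ± 0.28 (adjusted p = 5.95e-05), 2.92 within the low batch and 3 within the other. H2-K1, the other classical heavy chain, went from 554, 438, 561 and 433 CPM to 3080, 2372, 3358 and 3264 CPM (2.59 ± 0.29, adjusted p = 0.000183).

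The invariant light chain B2m rose from 5085, 3683, 4756 and 5152 CPM to 19420, 16306, 21096 and 13829 CPM (1.92 ± 0.30, adjusted p = 0.00161). All day 14 libraries lay above all day 2 and sham libraries. The call of B2m was lost within the batch of higher mitochondrial counts (adjusted p = 0.101), with counts rounded up (adjusted p = 0.0509) and with cells of more genes than counts left out (adjusted p = 0.0582). The non-classical heavy chains H2-T23 (2.20 ± 0.22, adjusted p = 7.98e-05), H2-Q7 (4.17 ± 0.34, adjusted p = 2.75e-05) and H2-Q6 (4.06 ± 0.57, adjusted p = 0.000822) also rose, and H2-Q7 went from 20.9, 19.7, 0 and 9.66 CPM to 282, 220, 328 and 265 CPM. Class I heavy chains are near-identical copies, so the authors' counting could have shared reads among them and their single values are uncertain.

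For the interferon and class I genes, the promoter table was searched for the interferon-stimulated response element, GAAA followed by any 2 bases and GAAA, on both strands in the same window. It stood in 12 of 18 interferon-response promoters (66.7%) and in 4 of 16 class I promoters (25%: B2m, Psme1, Erap1 and H2-T23), against 3.26% of the tested genes and 3.49% of all promoters. The promoters of Isg15 (chr4:156200819-156201068, minus strand, 3 overlapping matches 78 to 66 bases before the start), Rsad2 (chr12:26456453-26456702, minus strand, 120 bases before) and B2m (chr2:122147437-122147686, plus strand, 139 bases before) show it in an inducible modifier, an antiviral enzyme and a class I chain. Capitals mark the element or its reverse complement.
Isg15: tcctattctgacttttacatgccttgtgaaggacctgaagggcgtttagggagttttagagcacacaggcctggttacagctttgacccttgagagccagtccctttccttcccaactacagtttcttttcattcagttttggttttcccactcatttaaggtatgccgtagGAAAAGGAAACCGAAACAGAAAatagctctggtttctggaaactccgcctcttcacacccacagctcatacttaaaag
Rsad2: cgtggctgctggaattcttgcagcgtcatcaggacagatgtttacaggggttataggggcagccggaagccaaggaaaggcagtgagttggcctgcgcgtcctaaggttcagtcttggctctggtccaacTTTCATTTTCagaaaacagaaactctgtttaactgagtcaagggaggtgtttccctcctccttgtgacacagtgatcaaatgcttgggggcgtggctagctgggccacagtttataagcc
B2m: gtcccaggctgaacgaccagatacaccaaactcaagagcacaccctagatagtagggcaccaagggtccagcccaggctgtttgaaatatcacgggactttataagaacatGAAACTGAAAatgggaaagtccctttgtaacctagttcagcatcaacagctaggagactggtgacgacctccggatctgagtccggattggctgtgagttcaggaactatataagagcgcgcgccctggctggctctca
The B2m promoter also holds the letters TTTGAA, which were not part of the interferon search.

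Of 11 tested genes of MHC class II presentation, 3 rose and 1 fell (5.16% and 5.1% of all genes). With counts rounded up 6 rose and none fell, and the median of 1.27 turned to -0.14 with DESeq2. H2-Oa and H2-Ob, the subunits of H2-O, an inhibitor of peptide loading, rose by 1.94 ± 0.27 (adjusted p = 0.00069) and 1.84 ± 0.26 (adjusted p = 0.000798). H2-Oa was at 12.4, 19.7, 29.5 and 17.3 CPM at day 2, at 67.4, 57.1, 73.5 and 57.6 CPM at day 14 and at 31.9 to 47.0 CPM in sham, so that day 2 was the lowest of the 3 groups without overlap. In day 2 library 3 this value is 1 count, so its gap to sham is not a firm one. Ctss, the cathepsin that trims the class II chaperone, rose from 5201, 5746, 3574 and 6151 CPM to 14822, 14249, 17286 and 13160 CPM (1.52 ± 0.30, adjusted p = 0.00587), a call lost under the same 3 settings as that of B2m (adjusted p = 0.139 to 0.214). Ifi30, a lysosomal thiol reductase, fell from 718, 396, 1034 and 457 CPM to 232, 240, 303 and 127 CPM (-1.45 ± 0.38, adjusted p = 0.0284). No day 14 library of Ifi30 reached day 2, but the call was lost without day 2 library 3 (-1.14, adjusted p = 0.0624) and without each of day 2 libraries 1 and 4 and day 14 libraries 1, 2 and 4 (adjusted p = 0.0559 to 0.0834).

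Among cytokines and chemokines, 5 of 21 rose and 2 fell (median 1.49). Without day 2 library 4, 2 rose and none fell. The rising genes were 3 without day 2 library 1 and 8 without day 14 library 2, none fell without day 14 library 4, and the median was 0.59 without day 14 library 1. Cxcl13, the chemokine that attracts B cells, was at 0 in every day 2 and sham library and at 94.8, 38.0, 60.2 and 44.2 CPM at day 14. With 327 counts at day 14 against a floor of 3 counts over the day 2 group, it was at least 76.8-fold higher. Cxcl9, a T cell chemokine induced by interferon γ, was at 0.951, 0, 0 and 4.83 CPM at day 2 and at 25.1, 26.2, 56.1 and 15.8 CPM at day 14 (3.56 ± 0.64, adjusted p = 0.00609). Ccl5, a chemokine of T cells and monocytes, rose from 20.0, 69.1, 118 and 83.8 CPM to 237, 351, 559 and 219 CPM (2.47 ± 0.53, adjusted p = 0.00973), a call just lost without day 2 library 4 (adjusted p = 0.052). These 3 chemokines were at 0 to 4.08 CPM in sham.

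The monocyte chemokines went the other way. Ccl2 was at 279, 204, 827 and 872 CPM at day 2 and at 182, 88.0, 248 and 174 CPM at day 14 (-1.47 ± 0.36, adjusted p = 0.0194), with an overlap of day 14 library 3 and day 2 library 2. Ccl7 was at 22.8, 13.2, 59.1 and 130 CPM at day 2 and at 8.56, 7.13, 0 and 4.73 CPM at day 14 (-3.14 ± 0.74, adjusted p = 0.0168). Both calls were lost without day 2 library 4, the highest of its group (adjusted p = 0.135 and 0.271), and without day 14 library 4 (adjusted p = 0.0719 and 0.0865). Ccl12, a related monocyte chemokine, was at 1871, 1897, 207 and 4487 CPM at day 2 and at 1042, 583, 1329 and 1040 CPM at day 14. It did not pass with all libraries (-1.13, adjusted p = 0.213) and passed without day 2 library 3 (-1.50, adjusted p = 0.00911).

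Cxcl14 and the cytokine Osm, oncostatin M, rose by 1.90 ± 0.44 (adjusted p = 0.0154) and 1.74 ± 0.52 (adjusted p = 0.0494), both with overlapping libraries, and the call of Osm was lost in 13 of 24 alternatives. That of Cxcl14 was lost without day 2 library 1 or 4 (adjusted p = 0.0663 and 0.182). Ccl4, a chemokine of macrophages and T cells and the member with the highest mean level, was at 700, 553, 1211 and 2671 CPM at day 2 and at 7019, 1032, 2180 and 3164 CPM at day 14. The days overlapped and the change of 1.6 ± 0.65 did not pass (adjusted p = 0.137).

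Genes of NF-κB feedback and of the AP-1 early response were higher at day 14 on average, but they varied widely within the groups. Of 16 tested NF-κB genes 7 rose and none fell (median 1.30), but 0 of 16 were called without any one of day 2 libraries 1, 3 and 4 and day 14 libraries 1 and 4, and 1 to 3 without any one of day 2 library 2 and sham libraries 2, 3 and 4. Of 21 AP-1 and early response genes 7 rose and none fell (median 2.15), and 17 were called with DESeq2. Leaving out 1 library gave 1 (day 14 library 1), 2 (day 2 library 1 or 4), 4 (day 2 library 2 or day 14 library 4), 11 (day 14 library 3) or 13 calls (day 14 library 2). Within the batch of higher mitochondrial counts the AP-1 median was 0.75 with 2 genes called, and the NF-κB median was 0.94 with 1 called. Jun, an AP-1 subunit, was at 279, 196, 354 and 1191 CPM at day 2 and at 3013, 478, 1187 and 3087 CPM at day 14. The days overlapped, sham spanned 1299 to 5660 CPM, and the call (2.15 ± 0.64, adjusted p = 0.0467) was lost in 16 of 24 alternatives.

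Tnfaip3, the ubiquitin-editing inhibitor A20, was at 8.56, 11.5, 29.5 and 41.1 CPM at day 2 and at 664, 40.4, 70.2 and 127 CPM at day 14 (3.20 ± 0.93, adjusted p = 0.0438). Day 14 library 1 stood apart, day 14 library 2 lay just under day 2 library 4, and the change was 5.14 in the low batch and 1.21 in the other. The call was lost in 12 of 24 alternatives. Nfkbiz, an inducible IκB protein, was at 72.3, 60.9, 295 and 297 CPM against 1734, 160, 497 and 1910 CPM (3.05 ± 0.80, adjusted p = 0.0284), lost in 9. Cd83, a membrane protein of activated cells, rose by 2.47 ± 0.72 (adjusted p = 0.0429), lost in 14. Among early response genes, Fosb went from 30.4, 11.5, 29.5 and 60.0 CPM to 897, 92.7, 142 and 406 CPM (3.53 ± 0.91, adjusted p = 0.0254), with no overlap between the days but sham at 53.1 to 567 CPM, and its call was lost in 6, among them without any of day 2 libraries 1, 2 and 4 and day 14 libraries 1 and 4. Egr1 rose by 3.19 ± 0.94 (adjusted p = 0.0461, lost in 14), Egr2 by 2.62 ± 0.48 (adjusted p = 0.00375), Jund by 2.54 ± 0.61 (adjusted p = 0.0187) and Ier5 by 1.61 ± 0.37 (adjusted p = 0.0138). The small Maf protein Maff rose from 15.1 ± 10.2 to 79.4 ± 59.0 CPM (SD, n = 4 each; 2.88 ± 0.69, adjusted p = 0.0178). Calls of Maff and Jund were lost without day 2 library 1 or 4 or day 14 library 1 (adjusted p = 0.0556 to 0.092), that of Ier5 without day 14 library 1 (adjusted p = 0.0512) and within the batch of higher mitochondrial counts (adjusted p = 0.121), where that of Jund was lost too (adjusted p = 0.0558), and that of Egr2 without day 2 library 4 (adjusted p = 0.0532).

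In the complement system 4 of 12 genes rose and none fell (median 0.83). C3, the central component, was at 0 in every day 2 library and at 32.5, 29.7, 33.0 and 23.7 CPM at day 14, which is at least 35.7-fold higher (152 counts against the floor of 3). In sham it was at 0 except for 1.42 CPM in library 4. C4b rose from 11.4, 6.58, 0 and 2.42 CPM to 48.5, 64.2, 42.9 and 20.5 CPM (3.03 ± 0.47, adjusted p = 0.00149), with no overlap, although a near-identical copy can share its reads. Cfb, the protease of the alternative pathway, rose by 2.52 ± 0.66 (adjusted p = 0.0366) at 0 to 4.75 CPM against 9.47 to 19.8 CPM, a call lost in 8 of the 16 alternatives that tested it, among them leaving out day 2 library 3 (adjusted p = 0.0799). The fourth was Itgax, which encodes a chain of complement receptor 4.

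Receptors of uptake were called in both directions. Of 24 phagocytic and lipid-sensing receptors 2 rose (Trem2 and Axl) and 3 fell (Msr1, Cd36 and Siglece), while 5.16% of all genes rose and 5.1% fell. The median of 0.20 turned to -0.08 with library size scaling. The rising receptors were 4 without day 2 library 3, 1 without any one of day 2 library 1 and day 14 libraries 1 and 3, and 7 with DESeq2. Msr1, the scavenger receptor A of modified lipoproteins and damage signals, was at 270, 290, 502 and 531 CPM at day 2 and at 38.2, 34.5, 71.0 and 20.5 CPM at day 14 (-3.21 ± 0.33, adjusted p = 8.99e-05). The days did not overlap, and sham was at 5.61 to 12.4 CPM. Cd36, a fatty acid and lipoprotein scavenger receptor, fell from 47.5, 44.4, 29.5 and 33.4 CPM to 6.85, 3.57, 16.5 and 7.89 CPM (-2.25 ± 0.43, adjusted p = 0.00519), a call lost within the batch of higher mitochondrial counts (adjusted p = 0.0738). Siglece, an inhibitory receptor for sialic acids, was at 31.4, 26.3, 0 and 23.8 CPM at day 2 and at 4.57, 7.13, 9.08 and 7.10 CPM at day 14 (-1.90 ± 0.32, adjusted p = 0.00212; 0.0513 within that batch). Only day 2 library 3, at 0, overlapped, and sham was highest at 42.4 to 54.6 CPM.

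Of 20 genes of lipid uptake, storage and efflux, 9 rose and 4 fell (median 0.82). These counts were 2 and 2 without day 2 library 4 and within the batch of higher mitochondrial counts, 5 and 2 without day 2 library 1, and 8 and 2 without day 14 library 2 or 4. Those that fell were Msr1, Cd36, Acat1, a mitochondrial thiolase, and Plin2, the coat protein of lipid droplets. Plin2 was at 244, 219, 709 and 431 CPM at day 2 and at 201, 150, 250 and 174 CPM at day 14 (-0.84 ± 0.25, adjusted p = 0.0486), and its call was lost in 17 of 24 alternatives. Acat1 fell by 0.87 ± 0.23 (adjusted p = 0.0292), a call lost in 11. None of 16 genes of cholesterol synthesis was called, and their median of -0.02 was 0.12 with DESeq2.

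In the lysosome, 7 of 27 genes rose and 1 fell (median 0.75). Only 4 rose without any one of day 2 libraries 1, 2 and 4, day 14 libraries 1 and 3 and sham libraries 3 and 4, and 1 rose within the batch of higher mitochondrial counts, while 15 rose with DESeq2. Npc2, which carries cholesterol out of lysosomes, rose from 1224, 1306, 1713 and 1635 CPM to 3512, 3390, 4491 and 3618 CPM (1.36 ± 0.23, adjusted p = 0.00228), without overlap. Within the batch of higher mitochondrial counts alone the change was 1.32 but was not called (adjusted p = 0.179). Cst3, the secreted cystatin C and the most abundant member, was at 20541, 20158, 2747 and 21804 CPM at day 2 and at 33671 to 41261 CPM at day 14. Its change of 1.21 ± 0.50 did not pass (adjusted p = 0.142) but did without day 2 library 3 (0.83, adjusted p = 0.0194), and sham was at 33849 to 42909 CPM. Ctsc, the cathepsin that activates serine proteases, fell by 0.92 ± 0.26 (adjusted p = 0.0374), lost in 11 of 24 alternatives. Of 16 subunits of the proton pump V-ATPase, 1 rose and none fell (5.16% and 5.1% of all genes), with a median of 0.02 (-0.30 with library size scaling). That 1 was Atp6v0d2, a subunit of macrophages and osteoclasts, at 0 in all day 2 and sham libraries and at 13.7, 9.51, 35.5 and 11 CPM at day 14 (at least 20.9-fold higher, 89 counts against the floor of 3), a call lost without day 2 library 4 (adjusted p = 0.083). It could not be tested in 6 of 24 alternatives.

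Growth factor and matrix genes split. Of 21 tested, 4 rose and 3 fell (2 and 2 without day 2 library 4), with a median of 0.24 that was -0.02 with library size scaling. Igf1, insulin-like growth factor 1, was at 25.7, 42.8, 0 and 29.0 CPM at day 2 and at 501, 413, 899 and 428 CPM at day 14 (4.13 ± 0.41, adjusted p = 7.98e-05). The lowest day 14 library lay above every day 2 library, and sham was at most at 3.77 CPM. Timp2, an inhibitor of matrix metalloproteinases, rose from 411, 438, 59.1 and 366 CPM to 1376, 1619, 1573 and 1266 CPM (2.10 ± 0.33, adjusted p = 0.00149). Csf1, the growth factor that microglia need to survive and that was counted with the disease-associated state, rose from 56.1, 82.2, 0 and 100 CPM to 792, 239, 432 and 363 CPM (2.61 ± 0.44, adjusted p = 0.0025). Hbegf, an EGF receptor ligand, rose by 2.08 ± 0.49 (adjusted p = 0.0169, lost without day 2 library 4 at adjusted p = 0.228) to 4.76 to 32.3 CPM, below the sham range of 34.7 to 67.8 CPM. Tgfb1, transforming growth factor β1, rose by 0.87 ± 0.25 (adjusted p = 0.0396), a call lost in 15 of 24 alternatives.

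Of the falling members, Tgfbi, an adhesion protein of the matrix, was at 250, 171, 709 and 219 CPM at day 2 and at 20.0, 22.6, 22.3 and 0 CPM at day 14 (-4.14 ± 0.67, adjusted p = 0.00187). Lgals1, galectin-1, fell from 333, 360, 975 and 479 CPM to 83.9, 73.7, 142 and 33.1 CPM (-2.52 ± 0.50, adjusted p = 0.00609). For both genes the days did not overlap and day 2 library 3 was the highest. Monocyte-derived cells held 2422 CPM of Tgfbi and 2164 CPM of Lgals1 at day 2, and the part of such cells in these falls was not tested. Without day 2 library 3 the changes were -3.73 (adjusted p = 0.0029) and -2.24 (adjusted p = 0.0144). Mmp12, the macrophage elastase, fell from 60.8, 57.6, 59.1 and 36.2 CPM to 10.8, 5.94, 0.825 and 11.8 CPM (-2.67 ± 0.49, adjusted p = 0.00712), a call lost without day 2 library 4 (adjusted p = 0.0616), and it was at 0 in sham.

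In signalling by transforming growth factor β 6 of 17 genes rose and none fell (median 0.60), but the count was 0 without any one of day 2 libraries 1 and 4 and day 14 library 1. It was 3 without day 14 library 4 or sham library 4, and 2 with library size scaling. Smad7, the feedback inhibitor of the pathway, was at 32.3, 46.1, 0 and 27 CPM at day 2 and at 147, 53.5, 73.5 and 82.0 CPM at day 14 (1.46 ± 0.40, adjusted p = 0.0338, lost in 7 of 24 alternatives). Bambi, a decoy receptor of the pathway, rose from 0.951, 4.93, 0 and 7.25 CPM to 17.1, 17.8, 22.3 and 17.4 CPM (2.01 ± 0.51, adjusted p = 0.0246, lost in 5 of the 23 that tested it). Neither gene overlapped between the days, and sham lay at 60.2 to 135 CPM for Smad7 and at 2.12 to 9.86 CPM for Bambi. Of 8 purinergic receptors and ectoenzymes none was called (median 0.27). Of 14 genes of T cell costimulation and checkpoints 2 rose. These were Lag3, a ligand-binding inhibitory receptor (20.0, 47.7, 0 and 18.9 against 220, 240, 138 and 93.1 CPM; 2.77 ± 0.31, adjusted p = 0.000183), and Tnfsf8, the CD30 ligand (3.87 ± 0.85, adjusted p = 0.0118, lost without day 2 library 1 or 4, adjusted p = 0.0597 and 0.154).

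Il4i1, a secreted amino acid oxidase that lies outside these lists, was among the 12 highest called rises at a mean of at least 20 CPM, without overlap of libraries and not held at over 10 times the level by another cell type. It went from 6.65, 3.29, 0 and 2.01 CPM to 55.9, 30.9, 39.6 and 36.3 CPM (3.49 ± 0.46, adjusted p = 0.000583). The days did not overlap, and sham was at 4.30 to 10.6 CPM.

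Among metabolic lists, the counts of called genes depended on the scaling and on single libraries. Of 36 nuclear genes of oxidative phosphorylation 6 fell and none rose (median -0.47), and 21 fell with library size scaling. None fell without day 2 library 4, 2 without any one of day 14 libraries 1, 2 and 4, 3 without sham library 2 and 1 with counts rounded up. In the aged libraries described below, 19 of the 36 were higher at day 14 and 17 lower. Atp5g1, a subunit of the ATP synthase ring, fell from 244, 263, 236 and 445 CPM to 149, 137, 133 and 131 CPM (-1.15 ± 0.24, adjusted p = 0.00937), without overlap, a call lost without day 2 library 4 (adjusted p = 0.0886). Of 15 glycolysis genes 1 rose and 1 fell (median -0.16; 5.16% and 5.1% of all genes), and none was called without any one of day 2 libraries 1 and 4 and day 14 library 1. Pfkfb3, which makes the activator of phosphofructokinase, rose from 42.6 ± 11 to 130 ± 76.0 CPM (SD, n = 4 each; 1.54 ± 0.36, adjusted p = 0.0159), and Pkm, pyruvate kinase, fell by 0.99 ± 0.28 (adjusted p = 0.0378). The call of Pkm was lost in 12 of 24 alternatives and that of Pfkfb3 without day 2 library 1 or 4 or day 14 library 1 (adjusted p = 0.053 to 0.11). Of 36 cytosolic ribosomal protein genes none was called, and their median of 0.02 was -0.32 with library size scaling.

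Of 13 hypoxia genes 3 rose and 2 fell (median 0.54), but none fell without any one of day 2 libraries 2 and 4 and day 14 libraries 1, 3 and 4, and 1 without any one of day 2 library 3, day 14 library 2 and sham libraries 2 and 4. Hif1a, the oxygen-regulated transcription factor, was at 106, 143, 236 and 128 CPM at day 2 and at 370, 245, 372 and 348 CPM at day 14 (1.28 ± 0.22, adjusted p = 0.00272), with no overlap and with sham at 59.7 to 91.4 CPM. Its call was lost within the batch of higher mitochondrial counts (adjusted p = 0.0664). Egln3, a hydroxylase that marks HIF for breakdown, had 3 counts over the day 2 libraries and 99 over those of day 14, which is 23.2 times the level (exact 95% interval 7.73 to 115). Kdm3a, a histone demethylase, rose by 1.03 ± 0.28 (adjusted p = 0.0327), while Ddit4, an inhibitor of mTOR signalling, fell by 1.38 ± 0.41 (adjusted p = 0.0454) and Higd1a, a mitochondrial protein, fell by 0.89 ± 0.25 (adjusted p = 0.0392). These 3 calls were lost in 11, 13 and 10 of 24 alternatives.

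Stress genes were also mixed. Of 25 genes of the unfolded protein response and heat shock 2 rose and 5 fell (median -0.11). The falling genes were 1 without day 2 library 4 or day 14 library 1, 3 without day 2 library 1, 8 without day 2 library 3 and 9 with library size scaling. Manf, a secreted factor of the endoplasmic reticulum, fell from 456, 474, 502 and 738 CPM to 167, 259, 234 and 232 CPM (-1.29 ± 0.23, adjusted p = 0.00335), down to the sham range of 182 to 260 CPM except in library 1, which lay below it. Ddit3, the transcription factor CHOP, rose by 1.19 ± 0.26 (adjusted p = 0.0109) and Dnajb9, a co-chaperone, by 0.81 ± 0.21 (adjusted p = 0.0287, lost in 15 of 24 alternatives). In both, sham lay above the mean of either stroke day. Ddit3 lost its call without day 2 library 1 (adjusted p = 0.0545) and within the batch of higher mitochondrial counts (adjusted p = 0.262). Of 21 genes of iron, haem and antioxidant defence 2 rose and 2 fell (median -0.41), while 6 fell with library size scaling and none rose without day 2 library 4. Slc11a1, a metal transporter of phagosomes, rose from 190, 212, 177 and 163 CPM to 363, 332, 371 and 543 CPM (1.06 ± 0.23, adjusted p = 0.01, lost in 4 of 24 alternatives with an adjusted p of up to 0.0865), and the ferroxidase gene Cp by 3.22 ± 0.86 (adjusted p = 0.0298, lost in 8 of the 23 alternatives that tested it). Thioredoxin, Txn1, fell from 363, 290, 620 and 382 CPM to 186, 134, 172 and 110 CPM (-1.35 ± 0.28, adjusted p = 0.00777), and the peroxidase Prdx1 fell by 0.96 ± 0.28 (adjusted p = 0.0437, lost in 15).

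Of 12 p53 targets 3 rose and none fell, with a median of 0.31 that was -0.00 with library size scaling. Gadd45a, a stress sensor that slows the cell cycle, rose from 2.85, 1.64, 0 and 4.03 CPM to 26.3, 28.5, 32.2 and 19.7 CPM (3.03 ± 0.46, adjusted p = 0.00126). The days did not overlap, and sham was at 8.87 to 23.7 CPM. The pro-apoptotic genes Pmaip1 and Bbc3 rose by 2.41 ± 0.46 (adjusted p = 0.00474) and 1.48 ± 0.43 (adjusted p = 0.044), and their calls were lost in 1 alternative (without day 2 library 4, adjusted p = 0.0547) and in 15 alternatives. Lyz2, described with the markers above, was called at 1.58 ± 0.43 (adjusted p = 0.0331, lost in 11 of 24 alternatives) and at 2.27 without day 2 library 3 (adjusted p = 0.000289).

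**Figure D3:**
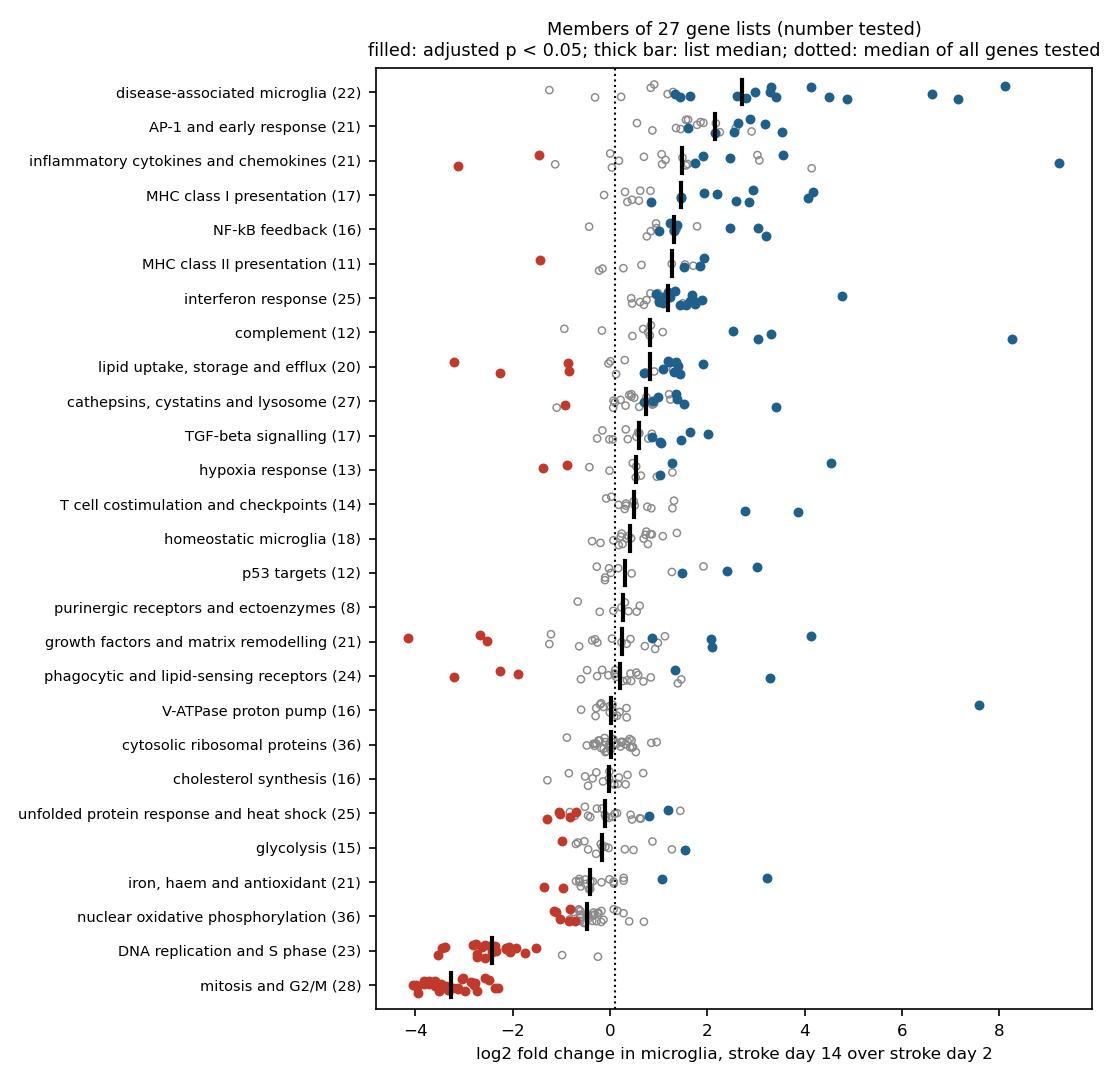
Log2 fold change of day 14 against day 2 for each tested member of the 27 gene lists (x axis; 1 point per gene, filled where called at an adjusted p under 0.05; thick bar, median of the list; dotted line, median of all 10145 genes). Mitotic genes lie furthest to the left with a median of -3.28 and genes of the disease-associated state furthest to the right with 2.70.

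Whether these changes also occurred in monocyte-derived cells of the same libraries was tested as the difference of both changes, with each library as a block. Of 11124 genes, 806 differed (7.25%), of which 493 had the higher change in microglia (4.43%) and 313 the lower (2.81%). With library size in place of TMM these were 220 higher and 1091 lower, and the medians of all genes were 0.06 and -0.31. The count was 422 without day 2 library 1, 372 without day 2 library 4 and 519 without day 14 library 3. It was 830 without day 2 library 3 (480 higher, 350 lower). The differences of single genes below include that library and are not given without it. The 8 libraries held 10123 monocyte-derived cells, whose levels below are pooled over the libraries of a day, without TMM.

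Apolipoproteins rose more in microglia. In monocyte-derived cells Apoe, pooled over the libraries of a day, was at 11547 CPM at day 2 and 51809 CPM at day 14 (1.92 ± 0.28, adjusted p = 0.00525), and the change in microglia was higher by 3.10 ± 0.43 (adjusted p = 0.000204). For Apoc1 the difference was 4.36 ± 0.51 (adjusted p = 6.39e-05). Genes of the disease-associated state also rose in monocyte-derived cells alone: 9 of the 20 tested there rose and 2 fell, with a median of 1.18. Of the 8276 genes tested in both cell types, 152 rose there and 170 fell. As a difference between the cell types, 10 of the 22 genes of this state had a higher change in microglia and 3 a lower one. Igf1 was among the latter: it rose by 6.04 ± 0.52 in monocyte-derived cells, from 2.92 to 211 CPM (adjusted p = 0.000734), and the difference was -1.68 ± 0.45 (adjusted p = 0.0277). Spp1, which did not pass in either cell type, differed by -1.55 ± 0.36 (adjusted p = 0.0115).

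MHC class I showed 5 of 17 genes with the higher change in microglia and none with the lower. In monocyte-derived cells alone, 6 of the 17 rose and none fell (median 0.79). H2-D1 rose by 0.98 ± 0.20 in monocyte-derived cells, from 2247 to 4416 CPM, and the change in microglia was higher by 1.98 ± 0.22 (adjusted p = 3.29e-05). B2m differed by 0.99 ± 0.21 (adjusted p = 0.0064). Of 25 interferon-response genes 6 differed, all higher in microglia, but not Ifit2 (0.29 ± 0.26, adjusted p = 0.58) or Isg15 (0.45 ± 0.30, adjusted p = 0.421). Within monocyte-derived cells, 6 of the 25 rose and none fell (median 0.67).

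Of 23 genes of DNA replication and S phase, 14 had the lower change in microglia and none the higher, as did 7 of 28 mitotic genes. Mki67 was at 7 CPM at day 2 and 8.49 CPM at day 14 in monocyte-derived cells, and the difference was -3.59 ± 0.49 (adjusted p = 0.000214). Most mitotic genes were too low in monocyte-derived cells to be tested there alone (6 of 28 were), such as Cdc20 at 0.997 and 0.868 CPM.

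Of 13 hypoxia genes, 5 had the higher change in microglia and none the lower. In monocyte-derived cells 4 of the 13 fell and none rose. Of the 8276 genes tested in both cell types, 170 fell and 152 rose there. Egln3 fell by 1.56 ± 0.35 there, from 14.1 to 5.13 CPM (adjusted p = 0.0318), and differed by 5.74 ± 0.72 (adjusted p = 0.000118). Hif1a was at 322 and 214 CPM there and differed by 1.96 ± 0.26 (adjusted p = 0.000149). Gadd45a also fell in monocyte-derived cells (-0.98 ± 0.24, adjusted p = 0.0488) and differed by 3.88 ± 0.40 (adjusted p = 3.29e-05). C3 was at 51.9 and 75.8 CPM there (0.61 ± 0.25, adjusted p = 0.212), whereas the microglia of the same day 2 libraries were at 0, and the difference passed the test (adjusted p = 3.29e-05), with a size that depends on the prior count of the fit.

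Msr1 fell in both cell types, by 1.20 ± 0.19 in monocyte-derived cells (adjusted p = 0.00771), and the change in microglia was lower than theirs by 2.01 ± 0.33 (log2 difference -2.01, adjusted p = 0.00101). Tgfbi (-2.66 ± 0.48, adjusted p = 0.00215), Mmp12 (-3.38 ± 0.77, adjusted p = 0.0102) and Lgals1 (-1.45 ± 0.32, adjusted p = 0.0086) also had the lower change in microglia. Growth factor and matrix genes had 7 of 21 with the lower and 2 with the higher change. The monocyte chemokine Ccl2 fell in both (-1.80 ± 0.31 in monocyte-derived cells), and the difference of 0.40 ± 0.25 did not pass (adjusted p = 0.404).

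**Figure D4:**
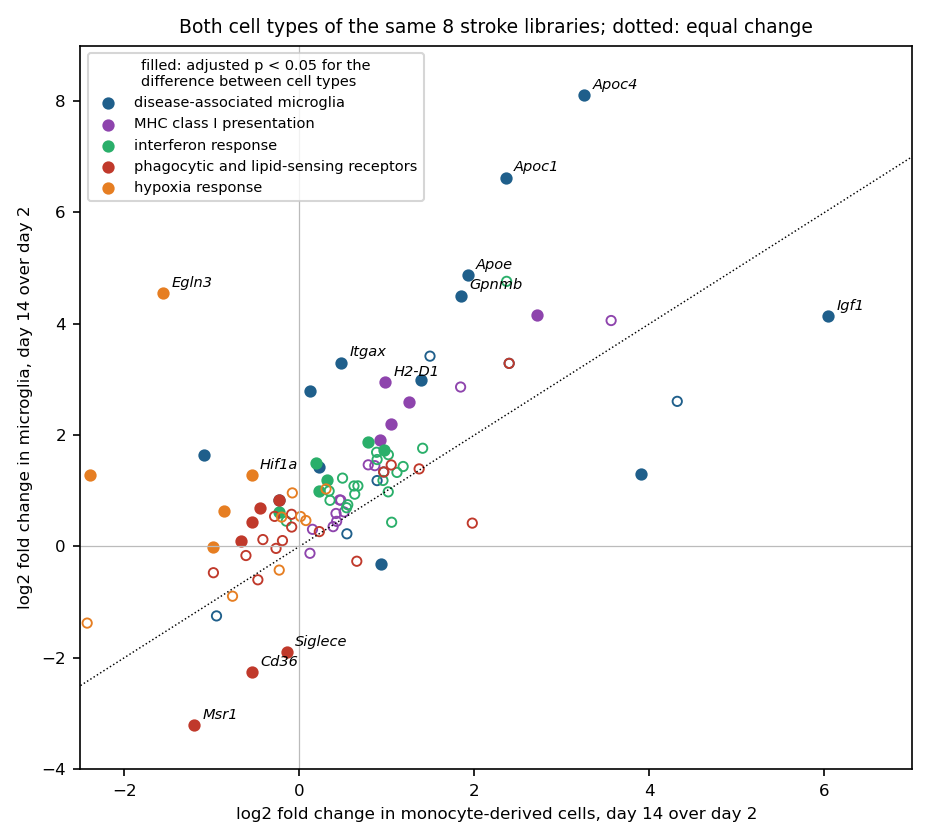
Log2 fold change of day 14 against day 2 in monocyte-derived cells (x axis) and in microglia (y axis) of the same 8 libraries for genes of 5 lists (disease-associated state, MHC class I, interferon response, phagocytic receptors and hypoxia); filled points differ between the cell types at an adjusted p under 0.05, and the line marks equal change. Apoe lies at 1.92 and 4.87, H2-D1 at 0.98 and 2.95, and Msr1 at -1.20 and -3.21.

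A sum over cells cannot tell more cells of a state from more RNA per cell, so the levels were also read within the deposited microglial subtypes, as a description, since the subtypes were clustered on these genes. Values here are CPM without TMM, over libraries with at least 20 cells of the subtype. Cell numbers are those of all libraries of the day. In subtype Mg1, Apoe ranged from 785 to 1135 CPM at day 2 (3 libraries, 335 cells) and from 5269 to 18992 CPM at day 14 (3 libraries, 321 cells). In Mg3 it ranged from 1001 to 9198 CPM (3 libraries, 133 cells) and from 44212 to 77665 CPM (4 libraries, 3415 cells). In Mg5, the subtype with the mitotic genes, it ranged from 382 to 1257 CPM (3 libraries, 911 cells) and from 22500 to 41234 CPM (2 libraries, 113 cells). In Mg4 it ranged from 1180 to 6687 CPM (4 libraries, 1034 cells) and was at 34171 CPM in day 14 library 2. This was the 1 day 14 library with enough cells, and Mg4 made up 2.09% of its 957 microglia (52 cells over all day 14 libraries). Apoe was thus higher at day 14 within each of these 4 subtypes, without overlap of libraries, but for Mg4 this rests on 1 day 14 library of few cells. In Mg2 it was not: Apoe ranged from 834 to 3563 CPM at day 2 (2 libraries, 219 cells), and the 1 day 14 library, at 2845 CPM, lay within that range. The subtypes Mg6, Mg7 and Mg8 had too few cells at one of the days. H2-D1 ranged from 418 to 939 against 1587 to 2043 CPM in Mg1, from 1337 to 1717 against 4778 to 6542 CPM in Mg3, from 813 to 1561 against 3354 CPM in Mg4 and from 549 to 671 against 4509 to 5453 CPM in Mg5. In Mg2 it was at 879 to 1044 CPM at day 2 and at 2408 CPM at day 14. For genes of cell division the ranges within Mg5 were mixed. Of 13 members of the mitotic and S phase lists named above, 9 overlapped between the days, among them Top2a at 578 to 803 CPM at day 2 and 616 to 976 CPM at day 14. The other 4 were lower at day 14 without overlap of libraries (3 at day 2, 2 at day 14): Birc5 (421 to 486 against 276 to 413 CPM), Cdc20 (110 to 165 against 77.5 to 87.1 CPM), Cdca8 (265 to 297 against 137 to 255 CPM) and Mcm2 (47.9 to 53.7 against 15.8 to 30.9 CPM). Of the division genes named above from outside the lists, Spc24 was also lower without overlap (141 to 183 against 111 to 139 CPM), while Pclaf and Cdca3 overlapped. The share of all genes without overlap within Mg5 was not counted, so these counts have no background. In Mg3 Cst7 ranged from 294 to 348 and from 1676 to 2320 CPM, and in Mg1 from 44.4 to 80.0 and from 68.8 to 212 CPM, where the libraries overlapped.

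Aged mice gave 1 library of day 14, so their values carry no test. The aged libraries were scaled by TMM among themselves. Of the 523 genes that rose in mice of 8 to 10 weeks, 492 were higher in the aged day 14 library than in the mean of the 3 aged day 2 libraries (94.1%), and of the 517 that fell 505 were lower (97.7%), while over all tested genes 54.6% were higher and 45.3% lower. Apoe was at 2471, 2066 and 1132 CPM in aged day 2 libraries and at 36853 CPM in the aged day 14 library. H2-D1 was at 1597, 1521 and 895 CPM against 5055 CPM. Both genes were thus above all aged day 2 libraries at day 14, and Msr1 was below them (814, 764 and 33.3 against 16.1 CPM). All 28 mitotic genes were lower (median log2 ratio -3.31), with Top2a at 73.3, 244 and 308 against 2.68 CPM, and 19 of 22 genes of the disease-associated state were higher.

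Interferon-response genes did not repeat in direction. In the aged libraries 12 were higher and 13 lower, with a median log2 ratio of -0.05. Irf7 was at 148, 151 and 112 CPM at day 2 and at 114 CPM at day 14, and Rsad2 was at 36.7, 97.7 and 29.1 against 44.6 CPM. Cxcl13 was at 53.5, 42.8 and 0 CPM at day 2 and at 53.5 CPM at day 14, so it was present at day 2 in 2 of 3 aged libraries. Ccl5 was at 232, 208 and 33.3 against 98.1 CPM. Spp1 was at 15983, 23936 and 653 CPM against 1005 CPM. For these genes the aged day 14 library did not lie apart from the aged day 2 libraries. Age and sex differed between the aged and the other libraries, and a difference between the ages was not tested.

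**Figure D5:**
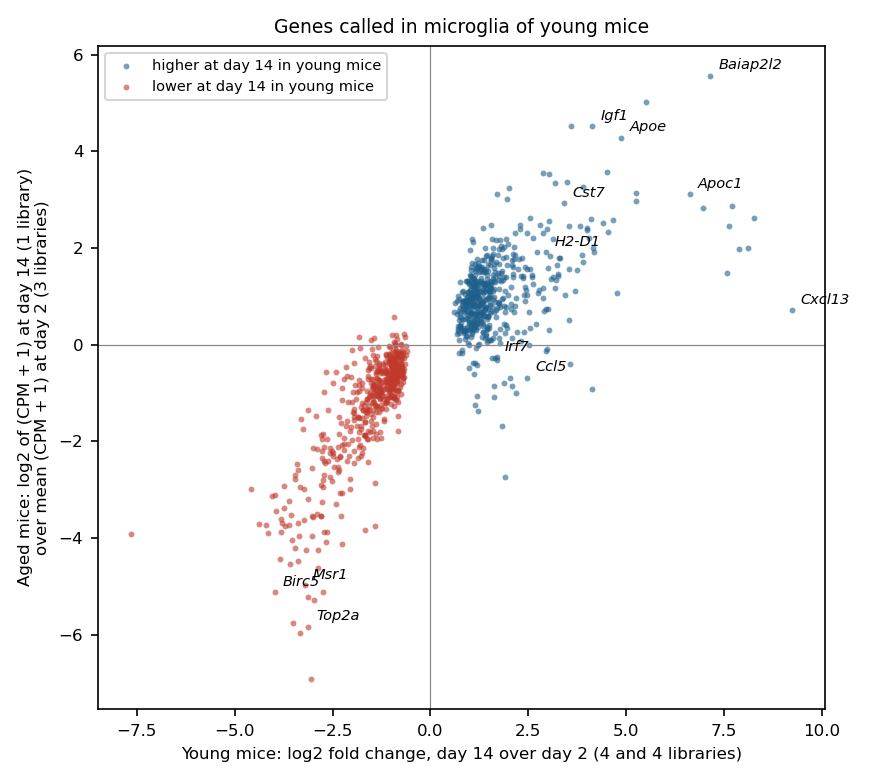
Log2 fold change of day 14 against day 2 in microglia of 8 to 10 week mice (x axis, 4 against 4 libraries) and log2 ratio of the aged day 14 library to the mean of 3 aged day 2 libraries (y axis) for the 1040 called genes, with 1 CPM added on the y axis. Of the genes on the right 492 of 523 lie above 0, and of those on the left 505 of 517 lie below 0.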

How the data were processed

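Drop-seq libraries of sorted brain cells were analysed as deposited. For each cell, the authors' tables list expected counts by gene that are not whole numbers, and the authors' metadata give per cell the summed expected counts, the percent of mitochondrial counts and the cell type codes. The genome build mm10 and Seurat are named, without a role, per the submitters' processing notes. The aligner, the counting and the filters on cells are not given in the sources used here. Whether the counting used strand is not known either, so overlapping genes can share reads.

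All deposited cells of parent Mg (7863 in the 8 stroke libraries) were summed per library and the sums rounded. Doublets were not removed: Scrublet in scanpy 1.11.5 marked 0% to 0.263% of cells per stroke library and 3 microglia, so it gave no usable calls. Genes were fitted with edgeR 4.0.16 (R 4.3.3, glmQLFit and glmQLFTest, TMM, filterByExpr on group) on 12 libraries (sham day 2, stroke day 2, stroke day 14, 4 each), with group and mitochondrial batch as terms. The sham libraries add to the shared estimate of the spread. The batch splits the libraries at the widest ratio (3) of their median mitochondrial percent. Tests were two-sided and called at a Benjamini-Hochberg adjusted p under 0.05; a standard error is the absolute fold change over the square root of F. The cell type difference was fitted on summed counts of microglia and monocyte-derived cells in 8 libraries, with library as a block and batch by cell type as a term.

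Named genes were the 12 highest and 12 lowest called fold changes with a mean of at least 20 CPM and no overlap of libraries, and of each of 27 gene lists the 4 members with the lowest p and the member with the highest level. Predicted, mitochondrial, ribosomal, haemoglobin, immunoglobulin and T cell receptor genes, and genes held at over 10 times the level by another cell type of at least 500 cells, were left out of the top 12. Spp1, Apoe, Cxcl13, Baiap2l2 and Apoc4 were added for reference. A few genes that the rule named are not reported here. Lyz2, Mef2c, Sparc, Ccl12, Jund, Ier5 and single members that made up a count were named after their values were seen. The comparison, its members and the lists were chosen with earlier results of these data known. Where a group had no count of a gene, 3 counts summed over its libraries served as the floor of the fold (pooled counts, without TMM), and for 1 to 3 counts the ratio has an exact 95% interval. Both cover counting error only. Promoters came from a RefSeq table of GRCm38.p6, the build also called mm10, in which 7360 of the 10145 tested genes had an entry. The scripts were tested on simulated data. Alternatives were library size scaling, DESeq2 1.42.0, no filter, no batch term, the stroke libraries alone, the replicate number as a block, counts rounded up, cells of at least 800 counts, Scrublet doublets left out and each stroke library left out. Leaving out each sham library, each batch alone and cells with more genes than counts left out were added after the data were seen.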

Additional observations from a re-analysis of the deposited data

Results flagged for a closer look

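Among 313 groups of 4 libraries (the named genes in 3 groups), 37 had 1 library that stood apart from the other 3 by Dixon's ratio at the 95% level. In 9 of these the other 3 libraries were at 0, where the ratio is 1 whatever the value, so they carry no test: Apoc4, Baiap2l2 and Actr3b at day 2 and Spc24, Tpx2, Rsad2, Cxcl14, C3 and Egln3 in sham. Of the other 304 groups 28 had a library apart (9.21%); chance flags about 1 in 20 groups. In the day 2 group the library apart was number 4 for Apoc4 (0.403 CPM), Baiap2l2 (1.61 CPM), Actr3b (1.61 CPM), Spp1 (18929 CPM), Jun (1191 CPM), Egr1 (268 CPM), Atp5g1 (445 CPM), Manf (738 CPM) and, as the lowest, Mmp12 (36.2 CPM). It was number 3 for Tgfbi (709 CPM), Clec7a (798 CPM) and, as the lowest, Cst3 (2747 CPM) and Kdm3a (0 CPM). Number 3 also stood apart in the share of its rounded-up microglial total that the gaps to whole numbers made up (79.6%).

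In the day 14 group it was number 3 for Apoc4 (198 CPM), Tpx2 (19.8 CPM), Spp1 (22251 CPM), Irf7 (352 CPM), Rrm2 (13.2 CPM), Cfb (19.8 CPM), Bambi (22.3 CPM) and Atp6v0d2 (35.5 CPM). It was number 1 for Rsad2 (157 CPM) and Tnfaip3 (664 CPM), and number 4 for Kdm3a (75.7 CPM) and, as the lowest, Itgax (71.8 CPM) and Tgfbi (0 CPM). In sham it was number 1 for Cxcl14 (0.510 CPM), Egln3 (1.02 CPM), Lag3 (77.6 CPM) and, as the lowest, Kdm3a (43.9 CPM), number 2 for Tpx2 (4.30 CPM) and Msr1 (12.4 CPM), number 3 for Rsad2 (1.97 CPM) and H2-T23 (275 CPM), and number 4 for Spc24 (0.708 CPM), Ifit2 (5.67 CPM) and C3 (1.42 CPM).

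For 45 of the 109 named genes the change from day 2 to day 14 differed between microglia and monocyte-derived cells at an adjusted p under 0.05 (edgeR). As log2 differences, microglia minus monocyte-derived cells, genes of cell division stood at -4.79 (Spc24), -3.81 (Pclaf), -3.60 (Mcm2), -3.59 (Mki67), -3.35 (Birc5), -3.19 (Tpx2) and -1.27 (Pcna). Matrix genes and scavenger receptors stood at -3.38 (Mmp12), -2.66 (Tgfbi), -2.01 (Msr1), -1.64 (Cd36) and -1.45 (Lgals1), the inhibitory receptor Siglece at -1.64 and Ifi30 at -0.79. Of the disease-associated state, Igf1 (-1.68) and Spp1 (-1.55) had the lower change in microglia. Apolipoproteins and other genes of this state stood at 5.34 (Apoc4), 4.36 (Apoc1), 3.10 (Apoe), 2.71 (Gpnmb), 2.55 (Itgax) and 1.80 (Clec7a). MHC class I genes stood at 1.98 (H2-D1), 1.28 (H2-K1), 1.18 (H2-T23), 1.11 (H2-Q7) and 0.99 (B2m).

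Early response and cytokine genes stood at 3.09 (Maff), 2.40 (Nfkbiz), 2.07 (Osm), 2.05 (Tnfaip3) and 1.90 (Cxcl14). Hypoxia and stress genes stood at 5.74 (Egln3), 3.88 (Gadd45a), 1.96 (Hif1a), 1.84 (Pfkfb3), 1.62 (Pmaip1) and 1.16 (Dnajb9). C3 stood at 7.66, Bambi at 1.81, Lyz2 at 1.61, Slc11a1 at 1.5, Npc2 at 1.25, Tgfb1 at 1.09 and Ctss at 1.07. For C3, which had no count in microglia at day 2, and for Apoc4 and Egln3, with 1 and 3 counts, the size of the difference depends on the prior count of the fit.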

How the results depend on the processing

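The number of genes called between both days (1040) ranged from 278 (without day 2 library 4) to 1275 with 1 library left out, from 126 to 608 for genes higher at day 14 and from 152 to 667 for those lower. It was 1 in the batch of low mitochondrial counts alone (1 higher, 0 lower), which leaves 5 libraries, and 675 in the other batch (323 lower), for which the cause was not tested. Library size in place of TMM gave 303 higher and 1171 lower, and DESeq2 871 higher, with the shift of the median of all genes given above. The cell type difference (806) was called for 1311 genes with library size and for 372 to 922 with 1 library left out. In every alternative, all of the 1040 genes that could be tested kept their direction. Each alternative reuses libraries on which these genes were called, so this is not a separate test of direction. Of the 101 called genes named above, 44 were tested and called in all 24 alternatives other than the low batch alone, and 4 more were called wherever they were tested (15 genes could not be tested in at least 1 of the 24), while 42 lost their call without day 2 library 4 and 31 in the other batch alone. Without day 2 library 3, 14 lost their call (edgeR, adjusted p = 0.051 to 0.098). These were Bbc3, Cd83, Cfb, Cp, Ddit4, Egr1, Ifi30, Jun, Nfkbiz, Pkm, Plin2, Prdx1, Tgfb1 and Tnfaip3. P2ry12, not called, turned from 0.38 to -0.0338 without day 2 library 3 (up to 0.848, without day 2 library 4, with 1 library left out), to -0.179 in the low batch alone, and to -0.0323 with cells of more genes than counts and that library left out.

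The replicate numbers were also used as a block, which left 735 genes called (387 higher, 348 lower). They were not shown to pair the libraries. Deviations from the group means correlated at 0.07, 0.63, 0.28 and 0.43 for numbers 1 to 4. Residuals after group and batch correlated at -0.21, 0.18, -0.18 and 0.39. By these residuals, 1 of 4 day 2 libraries correlated best with the day 14 library of its own number. With 4 libraries per day, this check cannot settle whether the numbers pair the libraries.

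Depth limits the genes of few counts: without TMM, the floor of 3 counts over a group is 0.681 CPM at day 2 and 0.48 CPM at day 14, and 1 count in day 2 library 3 is worth 38.0 CPM (29.5 CPM after TMM).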
